A study of Homo sapiens with 6 samples.

Results

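LTBP2, a latent TGF-beta binding protein of the extracellular matrix, is described here together with its 3 family members and the fibrillins and fibulins it assembles with. The 10 genes are LTBP1, LTBP2, LTBP3, LTBP4, FBN1, FBN2, FBLN1, FBLN5, EFEMP1 and EFEMP2. They were matched by symbol among 69292 gene IDs, all 10 were present, and 9 of them were among the 21223 genes with enough counts to be tested; FBN2 was not. The group was chosen by the higher LTBP2 counts of the ridaforolimus-resistant cells, so LTBP2 values in any comparison with those cells are a description without a p-value, as are all members' values in ridaforolimus-resistant against parental cells.

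RNA was sequenced from MDA-MB-231, a triple-negative breast cancer line that the labels class as mesenchymal stem-like. The ridaforolimus-resistant derivative was kept in 30 µM ridaforolimus for months, the everolimus-resistant derivative in 20 µM everolimus, and parental cells had no drug by the protocol, although a label field gives them DMSO. Both drugs are rapamycin analogs that inhibit the mTOR kinase, and the study asked which transcripts go with resistance to them. Each group has 2 libraries. Each resistant group is 1 derivative line, so resistance, the presence of the drug and drift of that line in culture cannot be told apart, and nothing in the labels says that the 2 libraries of a group came from separate cultures.

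The family builds the scaffold around which elastic tissue forms. Fibrillins, the products of FBN1 and FBN2, polymerise into microfibrils. LTBP1, LTBP3 and LTBP4 bind latent TGF-beta covalently and store it on these microfibrils, whereas LTBP2 does not bind latent TGF-beta and attaches to fibrillin-1 and to fibulin-5. Fibulin-5 (FBLN5) and fibulin-4 (EFEMP2) bring tropoelastin and lysyl oxidases together during elastic fibre assembly, fibulin-1 (FBLN1) is a basement membrane and elastic fibre component that binds fibronectin, and fibulin-3 (EFEMP1) is a related secreted glycoprotein. Fibroblasts and smooth muscle cells are their usual source.

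LTBP2 (ENSG00000119681) lies on the minus strand of chr14:74498170-74612378 and FBLN1 (ENSG00000077942) on the plus strand of chr22:45502238-45601135, in GENCODE 29 on GRCh38. The other members are FBLN5 at chr14:91869412-91947987, LTBP1 at chr2:32946972-33399509, LTBP3 at chr11:65538805-65558930, LTBP4 at chr19:40592883-40629818, FBN1 at chr15:48408306-48645849, FBN2 at chr5:128257909-128659185, EFEMP1 at chr2:55865967-55924139 and EFEMP2 at chr11:65866441-65873592. The promoters of LTBP2, the gene the group was chosen for, and of FBLN1, the other member that edgeR called in a comparison below, are shown from 250 bases before to 50 after the RefSeq start. The coordinates of these windows are chr14:74612188-74612487 on the minus strand for LTBP2 and chr22:45502633-45502932 on the plus strand for FBLN1 (RefSeq, GRCh38.p14). Capitals mark the SMAD box CAGAC and the GC box GGGCGG on either strand.
LTBP2: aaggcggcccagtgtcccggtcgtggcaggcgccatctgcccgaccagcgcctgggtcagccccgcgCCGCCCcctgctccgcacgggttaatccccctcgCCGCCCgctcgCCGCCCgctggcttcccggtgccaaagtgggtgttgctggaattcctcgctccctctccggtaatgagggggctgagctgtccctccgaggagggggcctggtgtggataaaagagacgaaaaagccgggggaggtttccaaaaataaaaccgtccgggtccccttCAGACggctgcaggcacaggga
FBLN1: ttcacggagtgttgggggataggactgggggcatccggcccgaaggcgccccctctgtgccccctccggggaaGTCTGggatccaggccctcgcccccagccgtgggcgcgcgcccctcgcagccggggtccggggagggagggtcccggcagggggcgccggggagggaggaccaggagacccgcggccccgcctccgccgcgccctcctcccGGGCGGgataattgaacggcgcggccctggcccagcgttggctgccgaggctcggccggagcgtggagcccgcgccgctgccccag
The LTBP2 window held 1 CAGAC and 3 GGGCGG, with a GC content of 67.0%, and the FBLN1 window held 1 of each, with a GC content of 78.0%. The median GC content of all windows was 58.7%. CAGAC was found in 45.3% and GGGCGG in 45.0% of the 35116 RefSeq windows, so either motif is common in windows of this length. Neither window held TATAAA or the AP-1 letters TGANTCA, which were found in 11.5% and 7.71% of windows, and no capital stretch overlaps another. Of the 10 genes, 9 had at least 1 window and 14 windows in all.

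The 6 libraries held between 13134567 and 15556246 reads in genes. A principal component analysis put 36.1% of the variance on its first axis, where the ridaforolimus-resistant libraries scored 36.4 and 73.2 and the other 4 scored -33.7 to -22.1. Summed over 10 fibroblast markers, the level was 11.5 and 21.8 CPM in ridaforolimus-resistant, 9.92 and 12.1 CPM in everolimus-resistant and 15.1 and 13.7 CPM in parental libraries, with LUM at 0 counts in all 6 and 3 of the 10 markers high enough to be tested. The sums over 6 smooth muscle markers were 24.3 to 31.2 CPM, over 6 endothelial markers 4.27 to 15.9 CPM, and over 6 leukocyte markers 1.22 to 2.83 CPM with CD3E at 0. None of these 4 sums was higher in both ridaforolimus-resistant libraries than in all other libraries. The line's own markers VIM, CD44, ZEB1, AXL and CAV1 summed to 1800 to 3090 CPM. The markers listed as low in this line, ESR1, PGR, ERBB2, CDH1 and EPCAM, summed to 45.9 to 65.2 CPM. Most of that sum was ERBB2, which had 44.3 to 62.9 CPM and so was not near the limit of detection. In bulk RNA, fewer cells with a transcript and less transcript per cell cannot be told apart. Levels are in CPM, counts scaled to each library's size after TMM normalisation, and values of a group are given in the order replicate 1, replicate 2. Fold changes are log2 values ± standard error from edgeR's quasi-likelihood fit to all 6 libraries, and a change is called at a Benjamini-Hochberg adjusted p under 0.05 over all genes tested.

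LTBP2, the gene the group was chosen for, was highest in the ridaforolimus-resistant cells. It had 315 and 270 CPM in ridaforolimus-resistant, 52.3 and 58.3 CPM in everolimus-resistant and 68.2 and 49.9 CPM in parental libraries. These rest on 4132 and 3698, 722 and 882, and 893 and 709 reads. The lowest ridaforolimus-resistant library lay far above the highest of the other 4, and the everolimus-resistant pair lay inside the parental range. The level was 4.95-fold that of parental cells (log2 2.31 ± 0.22, 95% interval 1.79 to 2.82) and 5.29-fold that of everolimus-resistant cells (2.40 ± 0.22). Between everolimus-resistant and parental cells, which the choice of genes did not use, the log2 difference was -0.09 ± 0.22 with an interval of -0.59 to 0.40 (adjusted p = 0.934, edgeR).

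**Figure D1:**
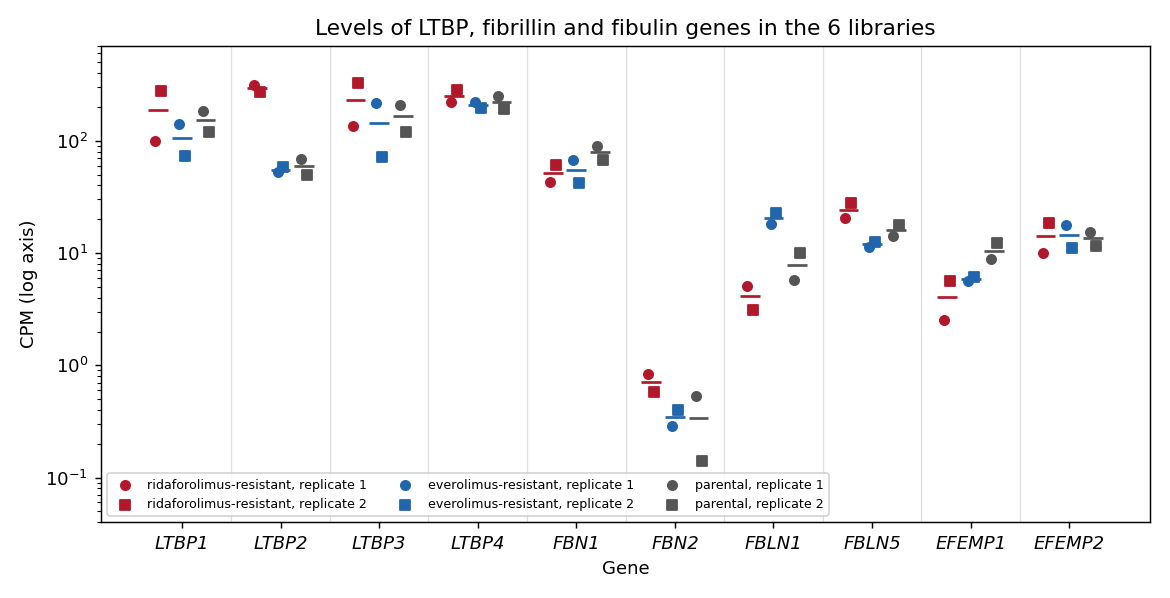
Level of each of the 10 genes in CPM on a log axis, 1 point per library and a line at each group's mean, in ridaforolimus-resistant, everolimus-resistant and parental cells. LTBP2 lies at 270 and 315 in the ridaforolimus-resistant libraries and between 49.9 and 68.2 in the other 4, while the libraries of LTBP1 and LTBP3 overlap across the groups.

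The 3 LTBPs that carry latent TGF-beta did not share this pattern. LTBP1 had 99.9 and 278 CPM in ridaforolimus-resistant, 141 and 72.8 CPM in everolimus-resistant and 186 and 119 CPM in parental libraries. LTBP3 had 135 and 326 CPM in ridaforolimus-resistant, 218 and 71.5 CPM in everolimus-resistant and 208 and 121 CPM in parental libraries. For both genes the libraries of every group overlapped those of the others. LTBP4 had 222 and 284 CPM in ridaforolimus-resistant, 220 and 197 CPM in everolimus-resistant and 253 and 193 CPM in parental libraries. Its ridaforolimus-resistant libraries were above both everolimus-resistant ones, by a margin of 222 to 220 CPM at the nearest pair, and overlapped the parental ones. Against parental cells the ridaforolimus-resistant log2 differences were 0.31 ± 0.48 for LTBP1, 0.48 ± 0.56 for LTBP3 and 0.18 ± 0.22 for LTBP4. Against everolimus-resistant cells they were 0.82 ± 0.49 for LTBP1 (edgeR adjusted p = 0.5), 0.67 ± 0.56 for LTBP3 (0.643) and 0.28 ± 0.22 for LTBP4 (0.627). The everolimus-resistant log2 differences from parental cells were -0.52 ± 0.49 for LTBP1 (adjusted p = 0.806), -0.19 ± 0.56 for LTBP3 (0.952) and -0.10 ± 0.22 for LTBP4 (0.932). None passed the threshold, and the 95% interval for LTBP1 between the resistant lines, -0.30 to 1.94, includes changes of more than 1 log2 unit.

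Levels of different genes were compared per kb of exon. In ridaforolimus-resistant cells LTBP2 had 32.2 ± 3.48 CPM per kb and LTBP4 31.2 ± 5.38 CPM per kb, followed by LTBP1 at 25.8 ± 17.1 and LTBP3 at 22.4 ± 13.1 (SD, n = 2 each). These 4 neighbours in the order did not differ beyond their spread. In everolimus-resistant cells LTBP4 led with 25.7 ± 1.96 CPM per kb, before LTBP1 (14.6 ± 6.55), LTBP3 (14.0 ± 10.0) and LTBP2 (6.08 ± 0.467). Parental cells had the same order, with LTBP4 at 27.5 ± 5.21, LTBP1 at 20.8 ± 6.46, LTBP3 at 16 ± 6.02 and LTBP2 at 6.50 ± 1.42 CPM per kb. LTBP2 was the lowest of the 4 in every everolimus-resistant and parental library, although its nearest neighbour LTBP3 came down to 6.95 CPM per kb in everolimus-resistant replicate 2, against 6.41 for LTBP2. By this length all other members were at or below 4.91 CPM per kb in every group's mean. Of these, FBLN5 led in ridaforolimus-resistant cells (4.85 ± 1.03) and FBN1 in everolimus-resistant (3.41 ± 1.08) and parental cells (4.91 ± 1.01). FBLN1 had rank 9 of 10 in ridaforolimus-resistant (0.566 ± 0.191), rank 6 in everolimus-resistant (2.81 ± 0.483) and rank 9 in parental cells (1.08 ± 0.415), although FBN1, FBLN1, EFEMP2 and FBLN5 overlapped in everolimus-resistant cells. Where the length of the longest coding transcript was used instead, LTBP2 had rank 3 among the 10 genes in ridaforolimus-resistant cells, at 34.1 CPM per kb behind LTBP3 (51.8) and LTBP4 (50.2). FBLN5 then had 9.96 CPM per kb in those cells. In everolimus-resistant cells EFEMP2 (7.14 ± 2.34) and FBLN1 (7.06 ± 1.21) then had higher means than LTBP2 (6.46 ± 0.495), within their spread.

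The LTBP2 share of the summed level per kb of the 4 LTBP genes was 39.0% and 22.1% in ridaforolimus-resistant, 7.86% and 13.5% in everolimus-resistant and 8.90% and 9.58% in parental libraries. The means were 30.6% ± 12.0, 10.7% ± 3.97 and 9.24% ± 0.485 (SD, n = 2 each). Both ridaforolimus-resistant shares were above all other 4, and LTBP1 and LTBP3 levels also differed between those 2 libraries. LTBP4 held 28.5% ± 3.38 in ridaforolimus-resistant, 44.0% ± 9.93 in everolimus-resistant and 39.3% ± 3.26 in parental cells. The summed LTBP level was 88.7 and 134 CPM per kb in ridaforolimus-resistant, 73.2 and 47.6 in everolimus-resistant and 84.4 and 57.3 in parental libraries. No p is given for these shares, since 2 libraries against 2 cannot go below 0.33 in an exact two-sided permutation test.

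**Figure D2:**
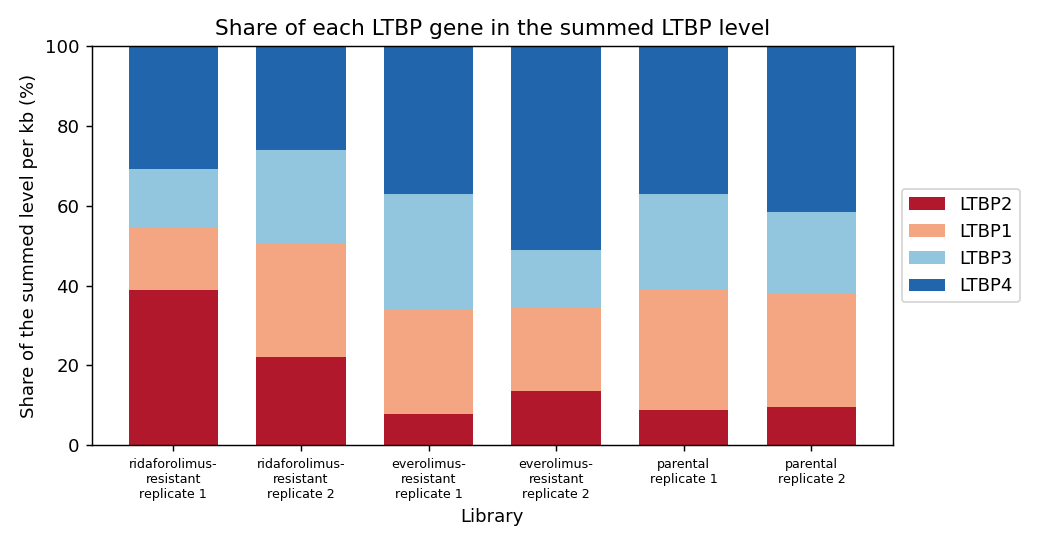
Share of LTBP1, LTBP2, LTBP3 and LTBP4 in their summed level per kb of exon, in percent, 1 stacked bar per library. LTBP2 holds 39.0% and 22.1% of the sum in the ridaforolimus-resistant libraries and 7.86% to 13.5% in the other 4.

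Of the fibrillins, FBN1 was expressed at a moderate level and FBN2 was near the limit of detection. FBN1, the main microfibril protein, had 43.1 and 61.0 CPM in ridaforolimus-resistant, 66.9 and 42.5 CPM in everolimus-resistant and 90.3 and 67.4 CPM in parental libraries. Both parental libraries were above all 4 libraries of the resistant lines, although 66.9 against 67.4 CPM is a narrow gap. The log2 difference from parental cells was -0.60 ± 0.28 in ridaforolimus-resistant and -0.53 ± 0.28 in everolimus-resistant cells, the second with an interval of -1.18 to 0.12 and adjusted p = 0.636 (edgeR). The resistant lines differed from each other by -0.07 ± 0.28 (adjusted p = 0.941). Both differences from parental cells use the same 2 parental libraries. FBN2, a fibrillin prominent in development, had 11 and 8 reads in ridaforolimus-resistant, 4 and 6 in everolimus-resistant and 7 and 2 in parental libraries. It was below 1 CPM in every library and too low to be tested.

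The fibulins differed from each other in which group was highest. FBLN1 had 5.11 and 3.14 CPM in ridaforolimus-resistant, 18.0 and 22.9 CPM in everolimus-resistant and 5.73 and 10.0 CPM in parental libraries, from 67 and 43, 248 and 347, and 75 and 142 reads. The everolimus-resistant libraries were the highest, the ridaforolimus-resistant the lowest and the parental in between, with no overlap between any of the 3 groups. In ridaforolimus-resistant cells FBLN1 was at 0.202 times the level of everolimus-resistant cells. The log2 difference was -2.31 ± 0.37 with an interval of -3.16 to -1.46 (edgeR adjusted p = 0.0403). That call was lost when only genes at 5 CPM or more in 2 libraries were tested (adjusted p = 0.0568, edgeR), when only the libraries of the resistant lines were fitted (0.106), and on leaving out any 1 of 5 of the 6 libraries, everolimus-resistant replicate 1 being the exception. Everolimus-resistant FBLN1 was 1.38 ± 0.35 above parental on the log2 scale, with an interval of 0.57 to 2.19, an unadjusted p of 0.00433 and an adjusted p of 0.405, so it did not pass. The ridaforolimus-resistant difference from parental was -0.93 ± 0.37.

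FBLN5, which binds LTBP2 and elastin, was like LTBP2 highest in the ridaforolimus-resistant libraries. It had 20.5 and 27.8 CPM in ridaforolimus-resistant, 11.4 and 12.6 CPM in everolimus-resistant and 14.2 and 17.9 CPM in parental libraries. The 3 groups did not overlap, with ridaforolimus-resistant highest and everolimus-resistant lowest. The log2 difference was 1.01 ± 0.25 between the resistant lines, with an interval of 0.43 to 1.58 and adjusted p = 0.13 by edgeR, which did not pass, and 0.0377 by DESeq2, which did. Against parental cells it was 0.59 ± 0.25 in ridaforolimus-resistant and -0.42 ± 0.25 in everolimus-resistant cells, the second with adjusted p = 0.677.

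EFEMP1 had 2.52 and 5.63 CPM in ridaforolimus-resistant, 5.65 and 6.15 CPM in everolimus-resistant and 8.79 and 12.2 CPM in parental libraries. Both parental libraries were highest, and the resistant lines did not overlap each other, with 5.63 against 5.65 CPM as the nearest values of the resistant lines. The log2 difference from parental was -1.36 ± 0.40 in ridaforolimus-resistant and -0.83 ± 0.39 in everolimus-resistant cells (adjusted p = 0.594, edgeR), and -0.53 ± 0.40 between the lines (0.61). EFEMP2, fibulin-4, had 9.91 and 18.6 CPM in ridaforolimus-resistant, 17.9 and 11.2 CPM in everolimus-resistant and 15.3 and 11.6 CPM in parental libraries, which overlap throughout. Its log2 differences were 0.08 ± 0.36 between ridaforolimus-resistant and parental, 0.11 ± 0.36 between everolimus-resistant and parental and -0.03 ± 0.36 between the resistant cells. The gene overlaps MUS81 on the opposite strand, which had up to 785 reads, so the EFEMP2 count is uncertain.

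**Figure D3:**
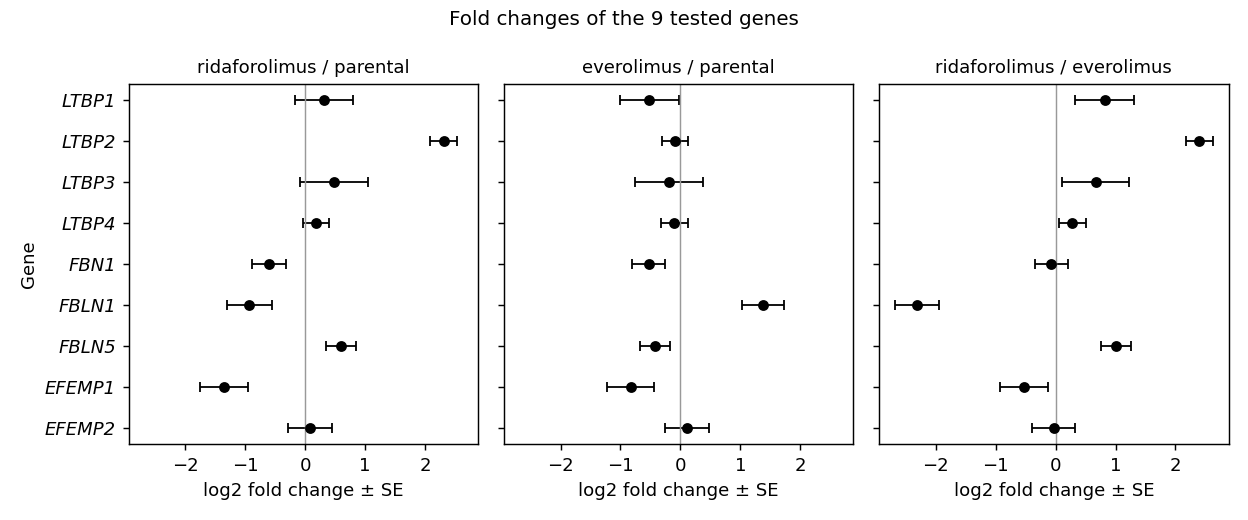
Log2 fold change (points) ± standard error (bars) of the 9 tested genes in 3 comparisons, ridaforolimus-resistant against parental, everolimus-resistant against parental and ridaforolimus-resistant against everolimus-resistant. LTBP2 lies at 2.31 and 2.40 in both comparisons with ridaforolimus-resistant cells and at -0.09 in the other, and FBLN1 lies at -2.31 between the resistant lines.

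Over the 9 tested genes, 1 was called between ridaforolimus-resistant and parental cells, LTBP2, where 0.32% of all genes were called (0.193% higher, 0.127% lower) in the comparison that chose the genes. Without either parental library, or without ridaforolimus-resistant replicate 2, LTBP2 kept log2 differences of 2.54, 2.10 and 2.42 there but was no longer called. Between everolimus-resistant and parental cells 0 were called by edgeR, DESeq2 or limma-voom, against 0.00471% of all genes by edgeR, and 1 of the 9, FBLN1, had an unadjusted p under 0.05. Between the resistant lines edgeR called FBLN1 lower, where 0.744% of all genes were called, 0.471% higher and 0.273% lower. LTBP2 was also past the threshold there, but it was chosen for its level in these libraries, so its call is a description and not a result against that share. The groups did not overlap for 5, 4 and 5 of the 9 genes in these 3 comparisons, against 49.4%, 41.1% and 41.2% of all genes. Split by direction, 2 lay above and 3 below in the first comparison (25.1% and 24.3% of all genes), 1 above and 3 below in the second (20.6% and 20.5%), and 3 above and 2 below in the third (20.9% and 20.4%). The median log2 difference of the 9 genes was 0.18, -0.19 and 0.28, against 0.01, 0.02 and -0.02 over all genes tested. Each pair of these comparisons shares the libraries of 1 group. In both comparisons with ridaforolimus-resistant cells, the counts without overlap, their split and the median include LTBP2, chosen for its level in those libraries. For those comparisons they are a description and not a result against the values of all genes.

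Among the members, LTBP1, LTBP3 and EFEMP2 differed more between the 2 libraries of each resistant group than between any pair of groups in the fit. LTBP1 was 1.47 log2 units higher in replicate 2 than in replicate 1 of the ridaforolimus-resistant cells, and 0.95 and 0.64 lower in replicate 2 of the everolimus-resistant and parental cells. LTBP3 showed the same signs, with 1.27, -1.60 and -0.79, and so did EFEMP2, with 0.9, -0.67 and -0.39. The same signs were seen for 5 of the 9 tested genes (LTBP1, LTBP3, LTBP4, FBN1 and EFEMP2), against 21.0% of all genes tested. The second principal component ordered the libraries likewise, with -20.2 and 6.3 in ridaforolimus-resistant, 13.8 and -59.8 in everolimus-resistant and 48.4 and 11.5 in parental cells, and its part in these values was not tested. LTBP2 differed by only -0.22, 0.16 and -0.45 between the replicates of the 3 groups, less than its difference between ridaforolimus-resistant cells and either other group.

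**Figure D4:**
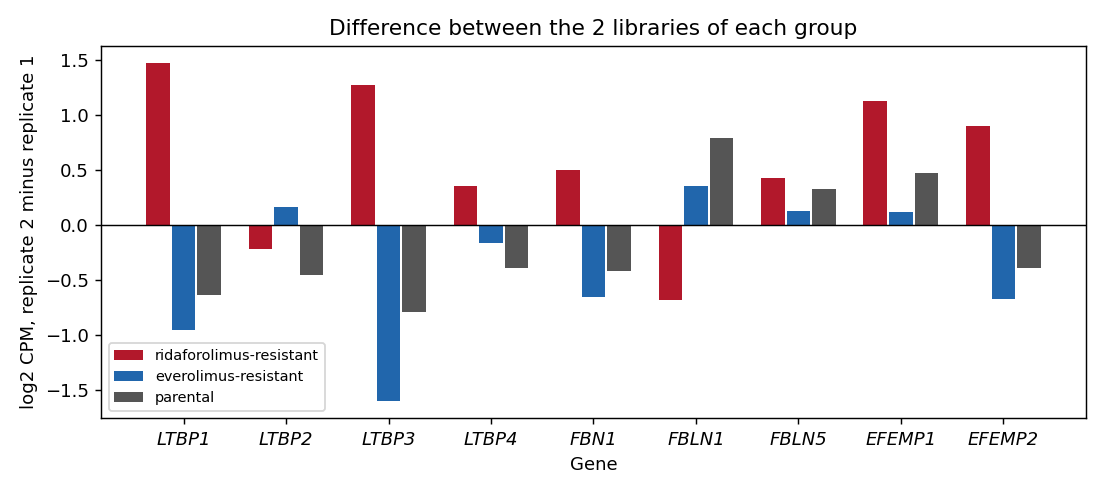
Difference between replicate 2 and replicate 1 of each group, in log2 units, 1 bar per group for each of the 9 tested genes. LTBP1 and LTBP3 lie at 1.47 and 1.27 in ridaforolimus-resistant cells and below 0 in the other groups, whereas LTBP2 lies between -0.45 and 0.16 in all 3.

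The genes around LTBP2 on chromosome 14 were examined because position was not used in choosing the genes. Within 1 Mb on either side 48 genes were tested, and their median log2 difference between ridaforolimus-resistant and parental cells was -0.05. The 33 protein-coding ones had a median of -0.10, and 0 of them were called in that comparison, where 0.32% of all genes were called. At that share a count of 0 among 33 genes does not set them apart. Between the resistant lines the median of the 48 was -0.20, with 15 above 0, against -0.02 over all genes. The 1 of the 48 called against parental cells lay beside the gene. ENSG00000258976, a lincRNA on the same strand whose body lies 2315 bp upstream of LTBP2 (chr14:74614693-74616647), had 21.0 and 20.8 CPM in ridaforolimus-resistant, 2.32 and 4.16 CPM in everolimus-resistant and 4.2 and 2.54 CPM in parental libraries. It was higher by 2.64 ± 0.37 than in parental cells (edgeR adjusted p = 0.0321) and by 2.68 ± 0.37 than in everolimus-resistant cells (0.0273), while everolimus-resistant cells differed from parental by -0.05 ± 0.38 (0.984). Both calls rest on few libraries: that against parental cells was lost on leaving out any 1 parental or ridaforolimus-resistant library, and that against everolimus-resistant cells without either ridaforolimus-resistant library. ENSG00000258425, a lincRNA inside the LTBP2 gene on the opposite strand, had 22 and 19 reads in ridaforolimus-resistant, 4 and 4 in everolimus-resistant and 3 and 4 in parental libraries, and its difference of 2.54 ± 0.56 did not pass (adjusted p = 0.112). Its reads were at most 0.564% of those of LTBP2, and since the strand setting of the counting is not given, reads of the pair cannot be told apart.

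Other near neighbours did not pass in the ridaforolimus-resistant comparison with parental cells. NPC2, a lysosomal cholesterol transporter, differed by -0.21, ISCA2, an iron-sulfur cluster assembly factor, by -0.00, and AREL1, a ubiquitin ligase, by -0.25. The noncoding ENSG00000258439 differed by -0.22 and ENSG00000270000 by 1.95 ± 0.80. Of the 33 coding neighbours, 1 was called between the resistant lines, where 0.744% of all genes were called. It is named after its values were seen. PGF, placental growth factor, had 1.22 and 1.02 CPM in ridaforolimus-resistant, 4.64 and 5.16 CPM in everolimus-resistant and 5.50 and 4.86 CPM in parental libraries. Its log2 difference was -2.12 ± 0.34 between the resistant lines (edgeR adjusted p = 0.0403), a call that was lost on leaving out any 1 of the 6 libraries, and -2.20 ± 0.34 against parental cells (0.0518), where it did not pass. Its body lies 329456 bp from LTBP2.

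**Figure D5:**
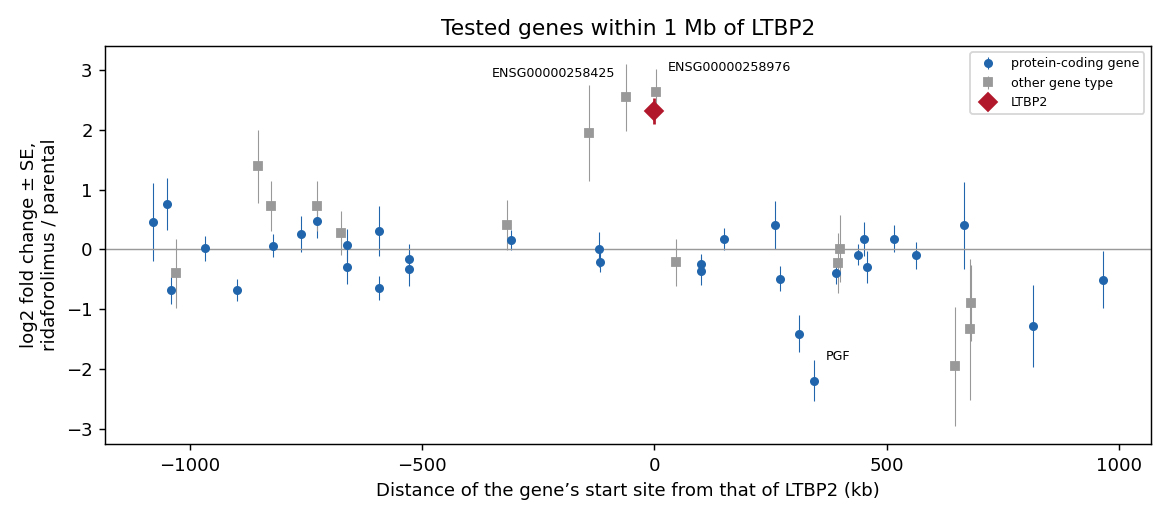
Log2 fold change ± standard error of the tested genes within 1 Mb of LTBP2, ridaforolimus-resistant against parental cells, by distance in kb of their start from that of LTBP2. LTBP2 and ENSG00000258976 lie at 2.31 and 2.64 between ridaforolimus-resistant and parental cells, and the median of the 48 neighbours lies at -0.05.

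Among the other elastic fibre and microfibril genes, 24 of the 33 on the list were tested. Of these 1 rose and 0 fell in ridaforolimus-resistant against parental cells by edgeR, which is 4.17% against 0.32% of all genes. Their median log2 difference was 0.34, against 0.01 over all genes, and 9 (37.5%) had an unadjusted p under 0.05, against 14.5% of all genes. DESeq2 called 4 (16.7%), against 2.7% of all genes. Of these ADAMTS6 (3.17 in edgeR's fit) and HMCN1 (1.23) were higher, and THSD4 (-1.81) and SDC2 (-1.29) were lower. The list was chosen with earlier results of these data known. Its shares and medians in all 3 comparisons are thus a description and not a result against all genes. The median of 0.34 was -0.02 without ridaforolimus-resistant replicate 2, 0.54 without its replicate 1, 0.13 without parental replicate 2 and 0.03 with only genes at 5 CPM or more in 2 libraries. The one that edgeR called was ADAMTS6, a metalloprotease of the ADAMTS family that acts on the extracellular matrix. It had 69.9 and 42.3 CPM in ridaforolimus-resistant, 13.5 and 24.5 CPM in everolimus-resistant and 5.04 and 7.40 CPM in parental libraries. The groups did not overlap, and the log2 difference was 3.17 ± 0.39 against parental cells (edgeR adjusted p = 0.0211), 1.61 ± 0.38 for everolimus-resistant against parental (0.335) and 1.56 ± 0.36 between the lines (0.107). The ADAMTS6 call was lost on leaving out any 1 parental or ridaforolimus-resistant library, with differences of 2.75 to 3.49. THSD4, an ADAMTS-like protein that promotes fibrillin-1 assembly, had 51.8 and 52.5 CPM in ridaforolimus-resistant, 117 and 66.7 CPM in everolimus-resistant and 202 and 164 CPM in parental libraries. Its difference of -1.81 ± 0.28 against parental cells missed the threshold at adjusted p = 0.0517, and DESeq2 and limma-voom called it.

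FN1 and LOX had, like LTBP1 and LTBP3, replicate 2 higher in ridaforolimus-resistant cells and replicate 1 higher in the other groups. FN1, fibronectin, had 1200 and 5290 CPM in ridaforolimus-resistant, 2830 and 2350 CPM in everolimus-resistant and 1360 and 1080 CPM in parental libraries. LOX, lysyl oxidase, which crosslinks elastin, had 44.6 and 196 CPM in ridaforolimus-resistant, 91.3 and 29 CPM in everolimus-resistant and 117 and 64.0 CPM in parental libraries. The LOX libraries overlapped across all groups, whereas the everolimus-resistant FN1 libraries lay above both parental ones and the ridaforolimus-resistant ones overlapped both other groups. ELN, tropoelastin itself, was low in all groups, at 1.75 and 3.51 CPM in ridaforolimus-resistant, 0.942 and 0.397 CPM in everolimus-resistant and 1.60 and 0.704 CPM in parental libraries. FURIN, HSPG2 and LOXL2 differed by -0.09, 0.15 and -0.18 from parental in ridaforolimus-resistant cells, and none passed. Between everolimus-resistant and parental cells 0 of the 24 were called by edgeR, and 2 (8.33%) had an unadjusted p under 0.05, against 8.79% of all genes. DESeq2 called 1, ADAMTS6 (4.17%), against 0.707% of all genes. The median there was 0.12 against 0.02 over all genes, and -0.20 without everolimus-resistant replicate 1 and 0.00 without either parental library. Between the lines 0 were called by edgeR, and 10 (41.7%) had an unadjusted p under 0.05, against 14.1% of all genes. DESeq2 called 5 (20.8%), against 3.1%. In ridaforolimus-resistant cells ADAMTS6 (1.56 in edgeR's fit) and HMCN1 (1.67) were higher, and ADAMTS17 (-1.52), EMILIN2 (-0.88) and SDC2 (-1.54) were lower. The median of the list was 0.28 against -0.02, with -0.06 without ridaforolimus-resistant replicate 2, 0.43 without its replicate 1 and 0.53 without everolimus-resistant replicate 1.

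The list of genes that make, release or sense latent TGF-beta had 23 of 29 tested, and edgeR called 0 in all 3 comparisons. Its medians were 0.21, 0.17 and 0.07, against 0.01, 0.02 and -0.02 over all genes. The first was 0.02 and 0.34 without ridaforolimus-resistant replicate 2 and 1, and 0.08 and 0.40 without parental replicate 2 and 1. The second was 0.07 and 0.26 without everolimus-resistant replicate 1 and 2. The third was -0.28 and 0.41 without ridaforolimus-resistant replicate 2 and 1, and 0.24 and 0.11 without everolimus-resistant replicate 1 and 2. An unadjusted p under 0.05 was found for 7 (30.4%), 3 (13%) and 6 (26.1%) of them, against 14.5%, 8.79% and 14.1% of all genes. DESeq2 called 0, 0 and 1 (4.35%, TGFB2, lower in ridaforolimus-resistant cells), against 2.7%, 0.707% and 3.1% of all genes, and limma-voom called 0. TGFB1, the ligand held by LTBP1, LTBP3 and LTBP4, differed by 0.44 ± 0.29 in ridaforolimus-resistant against parental cells, and TGFB2 by -0.42 ± 0.30. The libraries overlapped for both: TGFB1 had 69.5 and 130 CPM in ridaforolimus-resistant and 79.5 and 68.2 CPM in parental libraries. TGFB2 had 68.4 and 97.9 CPM against 81.1 and 141 CPM. The most abundant were TGM2, TGFBR2, ITGB1 and MMP14, which differed by -0.53, -0.30, 0.13 and 0.52. LTBP2 is itself on the list of 14 SMAD feedback genes and targets and is left out of it here. Of the other 13, all tested, edgeR and limma-voom called 0 in each comparison. An unadjusted p under 0.05 was found for 4 (30.8%), 4 (30.8%) and 3 (23.1%), against the same shares of all genes as above. DESeq2 called 3 (23.1%) in ridaforolimus-resistant against parental cells. Of these NEDD9 was lower (-1.93 in edgeR's fit) and PMEPA1 (1.42) and TGFBI (1.60) were higher. It called 1 (SMAD7, 7.69%) in everolimus-resistant against parental cells and 1 (NEDD9, 7.69%) between the lines. The DESeq2 shares of all genes were 2.7%, 0.707% and 3.1%. Both lists were chosen with earlier results of these data known. Their shares and medians are thus a description and not a result against all genes. The medians of the 13 were 0.43, 0.09 and 0.34, against 0.01, 0.02 and -0.02 over all genes. The first was 0.14 without ridaforolimus-resistant replicate 2, the second -0.02 without everolimus-resistant replicate 1 and 0.06 without parental replicate 2, and the third 0.05 and 0.04 without those same resistant libraries. TGFBI, a matrix protein induced by TGF-beta, had 98.8 and 116 CPM in ridaforolimus-resistant, 64.2 and 56.6 CPM in everolimus-resistant and 44.7 and 26 CPM in parental libraries, with a difference of 1.60 ± 0.27 that did not pass by edgeR (adjusted p = 0.0621) and passed by DESeq2 (7.7e-05).

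Over all 6 libraries, the genes with the level pattern most like LTBP2 were ranked by Pearson's r of log2 CPM among 10298 genes at a mean of 10 CPM or more. The 10 closest were RAP2B (r = 0.9919), RLIM (0.9889), MAGT1 (0.9889), SNX12 (0.9868), IGBP1 (0.9858), GSDME (0.9858), HDAC8 (0.9856), PJA1 (0.984), ATP6V1A (0.9833) and TUSC3 (0.9823). Of these, 6 lie on the X chromosome (RLIM, MAGT1, SNX12, IGBP1, HDAC8 and PJA1). That chromosome held 24 (31.2%) of the 77 genes at r of 0.95 or more and 326 (3.17%) of the 10298 compared, a share looked at after the ranking was seen and not tested. RAP2B, a small GTPase, had 190 and 170 CPM in ridaforolimus-resistant, 80.6 and 95.3 CPM in everolimus-resistant and 96.4 and 88.9 CPM in parental libraries. All 10 had both ridaforolimus-resistant libraries above the other 4, only 1 had a rank correlation of 0.9 or more, and 77 genes reached r of 0.95. The 6 points are 3 groups of 2 libraries and fall into 2 clusters, so r is given as a description. Their log2 differences between ridaforolimus-resistant and parental cells were 0.21 to 1.52, smaller than that of LTBP2. Among the members, r with LTBP2 was highest for FBLN5 (0.81) and lowest for FBLN1 (-0.77) and EFEMP1 (-0.74), over the same 6 libraries.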

How the data were processed

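The deposited values are raw counts, made by the authors for each Ensembl ID and library, neither normalised nor pooled. Per the submitters' processing notes STAR 2.7.9a, HTSeq 0.13.5, Trim Galore 0.6.6 and DESeq2 are listed with GRCh38, in roles that the notes leave unstated. Per the labels' protocols the kit was TruSeq Stranded mRNA. Neither the annotation release nor the counting's strand setting is given in those sources.

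Of 69292 IDs, 62625 had a symbol and 58279 a GENCODE 29 position. edgeR 4.0.16 in R 4.3.3 was used with TMM, filterByExpr by group and a quasi-likelihood test (glmQLFit, glmQLFTest) on 3 groups and 6 libraries (residual degrees of freedom: 3), two-sided, with Benjamini-Hochberg adjustment over 21223 genes. CPM used TMM-scaled library sizes, and levels per kb used the GENCODE 29 union of exons. The fit was tested on simulated data. DESeq2 1.42.0, limma 3.58.1 (voom), other filters, scalings and left-out libraries were tried.

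Replicates of a group were compared before averaging, and the chi-square per degree of freedom between them was 15.8 to 39.2, so no library was counted as a copy. The p-values measure the spread between libraries, which may be technical. No molecular identifiers are stated, so counting error is a lower limit. The genes, the partner lists, the markers and the naming rule were chosen with earlier results of these data known. The rule named all members; of each list, every called gene or else up to 4 of the highest CPM; the 10 genes most like LTBP2 at 10 CPM or more; and the nearest 3 neighbours on each side of LTBP2. PGF, THSD4, TGFBI, ELN, LOX, TGFB1, TGFB2, SMAD7, PMEPA1, NEDD9, HMCN1, SDC2, ADAMTS17 and EMILIN2 were added after their values were seen. Promoter windows are from RefSeq (GRCh38.p14), 9 of 10 members matching.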

Additional observations from a re-analysis of the deposited data

Results flagged for a closer look

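Among the members other than LTBP2 and the genes near LTBP2, FBLN1, ENSG00000258976 and PGF differed between the resistant lines by a direct test of that difference in edgeR's quasi-likelihood fit, each line having 2 libraries. Of all genes tested, 0.744% were called in that comparison. FBLN1 was lower in ridaforolimus-resistant than in everolimus-resistant cells by -2.31 ± 0.37 on the log2 scale (adjusted p = 0.0403), with no overlap of libraries. ENSG00000258976, the lincRNA beside LTBP2, was higher by 2.68 ± 0.37 (adjusted p = 0.0273), with 21.0 and 20.8 CPM in ridaforolimus-resistant against 2.32 and 4.16 CPM in everolimus-resistant libraries. PGF, 329456 bp from LTBP2, was lower by -2.12 ± 0.34 (adjusted p = 0.0403), with 1.22 and 1.02 CPM in ridaforolimus-resistant against 4.64 and 5.16 CPM in everolimus-resistant libraries. The causes were not tested.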

How the results depend on the processing

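Of 351 alternative values for the tested members, 317 kept direction and side of the threshold, 12 lost the call, 5 gained one and 17 changed sign. Most of them had no call to lose. Without LTBP2 and without FBLN1 between the lines, 278 of 299 were kept, 0 lost a call, 5 gained one and 16 changed sign. All 12 losses thus fell on LTBP2 and on FBLN1 between the lines, and the 317 does not measure how stable those calls are. Genes called between ridaforolimus-resistant and parental cells numbered 68, and 574 by DESeq2, 1195 with no filter on low counts, 127 with only the 2 groups compared and 1 to 276 without 1 library. The 1 call of everolimus-resistant against parental cells became 150 by DESeq2, 493 with no filter, 0 at 5 CPM or more in 2 libraries, 0 with only the 2 groups and 0 to 3 without 1 library. The 158 calls between the resistant lines became 657 by DESeq2, 1362 with no filter, 81 at 5 CPM or more in 2 libraries, 0 with only the 2 groups and 19 to 123 without 1 library.

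LTBP2 was 2.10 to 2.54 against parental cells without 1 library and fell below the threshold without either parental library or ridaforolimus-resistant replicate 2. Against everolimus-resistant cells it was 2.28 to 2.53 and stayed called in these, but not with only the 2 groups (2.40). Everolimus-resistant against parental it was -0.30 to 0.14, positive without parental replicate 1. FBLN1 between the lines lost its call at 5 CPM or more (-2.29, edgeR adjusted p = 0.0568), with only the 2 groups (-2.31, 0.106) and without any 1 library but everolimus-resistant replicate 1 (range -2.70 to -1.99). With only the 2 groups 0 genes were called between the lines, so the calls of PGF and ENSG00000258976 were lost too, and that of PGF was also lost by limma-voom and at 5 CPM or more.

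Leaving out 1 library leaves its group with 1, which the fit assumes to vary like the other groups. Differences that changed sign without 1 library ranged, in ridaforolimus-resistant against parental cells, from -0.60 to 0.86 for LTBP1, -0.28 to 0.98 for LTBP3, -0.01 to 0.38 for LTBP4 and -0.43 to 0.46 for EFEMP2. In everolimus-resistant against parental cells they ranged from -1.20 to 0.40 for LTBP3, -0.28 to 0.10 for LTBP4 and -0.26 to 0.41 for EFEMP2, -0.17 to 0.01 for PGF, -0.54 to 0.35 for ENSG00000258976 and -0.03 to 0.26 for ENSG00000258425. Between the lines they were -0.07 to 1.38 for LTBP1, -0.07 to 1.67 for LTBP3, -0.36 to 0.28 for FBN1 and -0.53 to 0.35 for EFEMP2. The causes were not tested.

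Same-numbered replicates deviated together in parental and everolimus-resistant cells (correlation 0.329) but not in the other pairs of groups (-0.167 and -0.186), so the numbers are not taken to pair the samples. With a replicate block 28, 0 and 49 genes were called in the 3 comparisons. The block ended the calls of FBLN1 (-2.28, edgeR adjusted p = 0.0877) and PGF (-2.12, 0.0877) between the lines, of ENSG00000258976 against parental (2.63, 0.082) and everolimus-resistant cells (2.69, 0.0642), and of ADAMTS6 against parental cells (3.21, 0.058). With the numbers of the ridaforolimus-resistant group crossed, an alternative added after seeing the data, 814, 150 and 1044 were called.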
